A study of Mus musculus with 6 samples.

Results

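Thyroid lineage transcription factors are the regulators that specify the thyroid primordium, keep follicular cells differentiated and pattern the pharyngeal endoderm from which the gland and its neighbours arise. The 9 genes Pax8, Nkx2-1, Foxe1, Hhex, Glis3, Eya1, Foxa2, Tbx1 and Isl1 were taken by symbol from a count table of 21878 genes, and all 9 were among the 14143 genes with enough counts to be tested. RNA-seq had been performed on thyroid glands of female mice aged 12 weeks, with 3 mice labelled Thy-Tet1-/- and 3 labelled Thy-Tet1+/+, to find which genes change when the DNA demethylase TET1 is removed from the thyroid. Thy-Tet1-/- mice carry floxed Tet1 alleles and a Cre recombinase that acts in thyroid follicular epithelial cells, so that other cell types of the gland should keep the gene. Thy-Tet1+/+ mice were their wild-type littermates, and whether these carry the Cre is not given in the sources used here. Neither group received a treatment. The deposited extraction text speaks of retinas, whereas the stated source of every library is thyroid.

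In follicular cells PAX8, NKX2-1, FOXE1 and HHEX are present together from the first budding of the gland, and this combination is found in no other adult tissue. They bind the promoters of thyroglobulin and the other genes of hormone synthesis and maintain one another's transcription, while GLIS3 acts with the response to thyroid-stimulating hormone. EYA1 and TBX1 act mainly in the pharyngeal tissue from which the parathyroid, the thymus and the surroundings of the thyroid form, and FOXA2 and ISL1 are expressed in the calcitonin-producing C cells or their precursors.

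Before the factors, the libraries were checked. Tet1, the targeted gene, had 48, 71 and 62 counts in Thy-Tet1+/+ against 172, 162 and 241 in libraries labelled Thy-Tet1-/-, a log2 fold change of 1.28 (standard error 0.27, adjusted p = 0.101 from edgeR, 0.00106 from DESeq2 and 0.00106 to 0.325 over all alternatives). This goes against the label, and the directions given below are drawn from the labels. The library titles read control and treatment, taken here as Thy-Tet1+/+ and Thy-Tet1-/-. Counts were per gene, and reads on single exons of Tet1 were not analysed here. Thyroglobulin alone took 24.0 to 29.4% of the counts in Thy-Tet1+/+ and 21.2 to 24.0% in the other group, so the tissue is thyroid, although the follicular markers Slc26a4 and Tff3 had under 10 counts in every library. Totals were 8867683 to 19950898 counts per library, the shallowest being Thy-Tet1+/+ replicate 1. Thymocyte genes stood out in Thy-Tet1+/+ replicate 1 and in replicate 3 labelled Thy-Tet1-/-, with a summed level of 126 and 521 CPM (counts scaled to library sizes adjusted by the trimmed mean of M-values) against 8.06 to 17.0 in the other 4 libraries. Parathyroid genes were lowest in Thy-Tet1+/+ replicate 2 and skeletal muscle genes ranged from 38.5 to 6506 CPM. The 6 adipocyte markers summed to 310, 132 and 44.1 CPM in Thy-Tet1+/+ and 981, 444 and 164 CPM in the other group, with overlap. Whether adipose tissue in the samples has a part in the results below was not tested. The samples are whole glands, in which fewer cells of a type and less RNA per cell cannot be told apart.

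Between the groups, Isl1 and Nkx2-1 were higher and Glis3 was lower in the libraries labelled Thy-Tet1-/- by the limits the study used, a change of over 1.5-fold up or down with a p under 0.05 that is not adjusted. Pax8 was 1.33-fold higher, a smaller difference than these limits ask for, and Foxe1, Hhex, Eya1, Foxa2 and Tbx1 did not pass the test. The 3 of 9 factors past the limits stand beside 9.2% of all tested genes and 10.2% of the 987 tested genes that the table annotates as transcription factors. By direction, 2 of 9 were higher beside 5.54% of all genes, and 1 of 9 was lower beside 3.66%. The groups did not overlap for 4 of 9 factors (Pax8, Nkx2-1, Glis3 and Isl1) and for 26.8% of all genes. After Benjamini-Hochberg adjustment over all tested genes, edgeR's quasi-likelihood test called 0 of the 9, and 0.113% of all genes. The same 4 factors had an unadjusted p under 0.05 from edgeR, a level met by 18.9% of all genes. The Wald test of DESeq2 called these 4 after adjustment, beside 8.39% of all genes, and limma-voom called 0. The median log2 fold change over the 9 factors was 0.21, and over all tested genes it was 0.00.

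**Figure D1:**
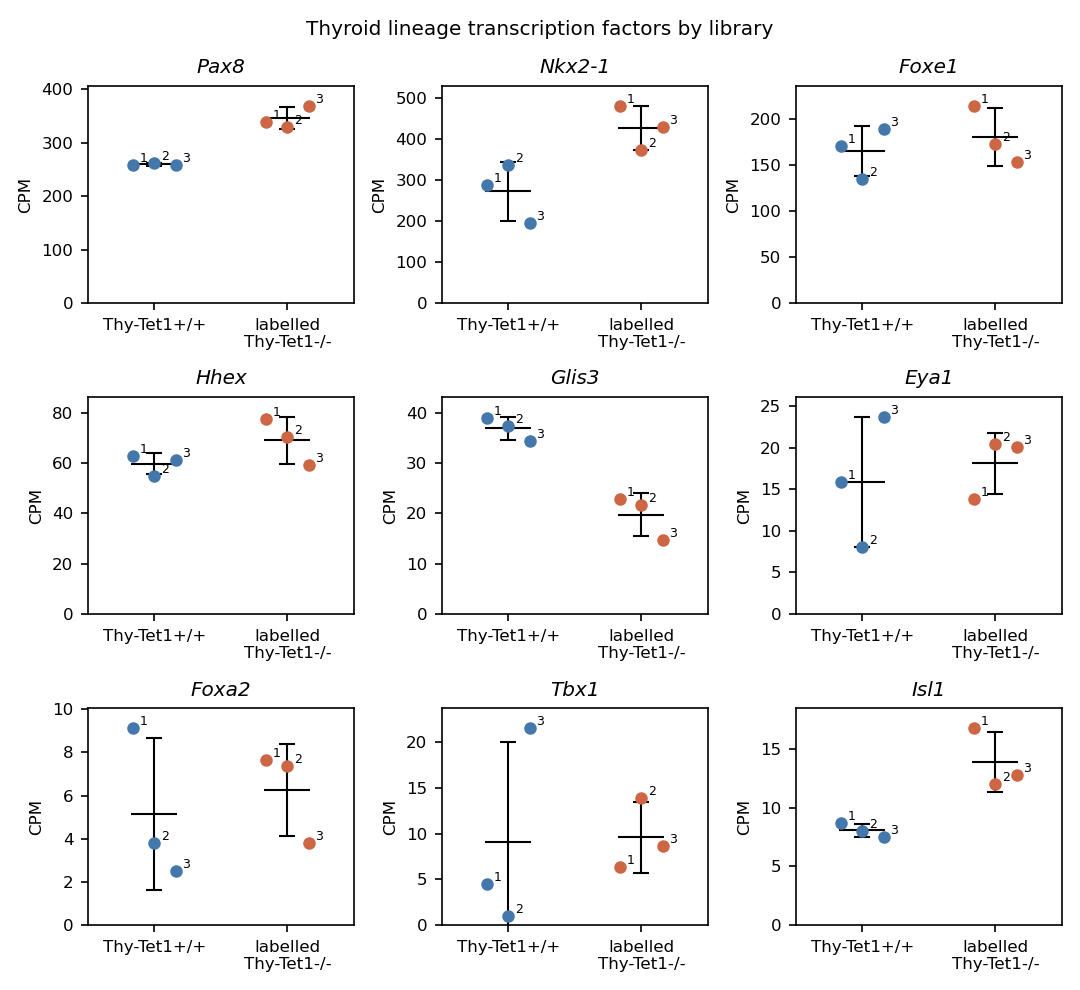
Level of each of the 9 factors in every library, in CPM on a linear axis from 0. Points are libraries numbered by replicate, and bars give the mean ± s.d. of 3 libraries. Pax8, Nkx2-1 and Isl1 lie higher and Glis3 lower in all 3 libraries labelled Thy-Tet1-/-, whereas the groups of the other 5 factors overlap.

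The starts of the 4 factors whose groups did not overlap are shown here because TET1 acts on cytosines in CG context. Each line gives the 250 bases upstream of a RefSeq transcription start on GRCm38.p6 (mm10), 5′ to 3′ on the gene's strand, in lower case with every CG dinucleotide in capitals. All 4 genes lie on the minus strand.
Pax8, chr2:24475600-24475849: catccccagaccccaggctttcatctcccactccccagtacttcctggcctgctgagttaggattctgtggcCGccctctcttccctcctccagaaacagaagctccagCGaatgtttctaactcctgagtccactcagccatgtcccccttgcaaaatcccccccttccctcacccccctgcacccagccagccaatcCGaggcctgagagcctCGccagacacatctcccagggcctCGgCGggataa
Nkx2-1, chr12:56536909-56537158: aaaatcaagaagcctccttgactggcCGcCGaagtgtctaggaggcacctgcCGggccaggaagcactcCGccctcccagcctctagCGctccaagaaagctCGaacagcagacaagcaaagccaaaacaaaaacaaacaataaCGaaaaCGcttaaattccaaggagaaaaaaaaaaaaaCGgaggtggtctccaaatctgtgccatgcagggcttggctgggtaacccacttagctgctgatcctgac
Glis3, chr19:28680078-28680327: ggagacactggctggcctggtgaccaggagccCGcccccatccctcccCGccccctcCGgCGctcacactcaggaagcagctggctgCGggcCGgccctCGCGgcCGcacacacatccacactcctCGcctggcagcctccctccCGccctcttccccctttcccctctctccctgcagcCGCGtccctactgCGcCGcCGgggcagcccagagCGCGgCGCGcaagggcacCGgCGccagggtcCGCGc
Isl1, chr13:116309689-116309938: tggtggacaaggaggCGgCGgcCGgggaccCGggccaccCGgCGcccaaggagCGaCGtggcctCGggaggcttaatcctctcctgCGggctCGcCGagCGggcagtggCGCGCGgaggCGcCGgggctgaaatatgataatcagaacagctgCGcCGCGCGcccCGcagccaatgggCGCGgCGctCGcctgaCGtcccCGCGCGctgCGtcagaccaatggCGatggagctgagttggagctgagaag

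RefSeq promoters were matched for 7 of the 9 factors by symbol. In these windows Pax8 held 6 CG dinucleotides, the median of all 32851 promoters of the table, and Nkx2-1 held 9. The Glis3 window held 24, more than 88.0% of promoters, and the Isl1 window held 33, more than 96.0%. Both strands were searched for letters that the field associates with these factors and with cAMP signalling. TCAAG, the core of the NKX2-1 site, occurred 2 times in the Nkx2-1 window, and 35.9% of all promoters hold it. TGACG, the core of the cAMP response element, occurred 2 times in the Isl1 window, and 17.8% of all promoters hold it. The Pax8 and Glis3 windows held neither. The longer NKX2-1 form CTCAAG, each match of which is also a TCAAG, was in none of the 4 windows and is held by 13.3% of promoters. The forkhead letters TGTTTAC were in none of them and are held by 3.2%. The letters TGGGGGGT, searched for GLIS3, were in none and are held by 1.4%. The full response element TGACGTCA, each match of which is also a TGACG, was in none and is held by 1.5%. These matches describe letters in the windows and no binding or methylation was measured.

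Pax8 (NCBI gene 18510, chr2:24420560-24475599 on mm10 by GENCODE M21) encodes the paired-box activator of the thyroid hormone synthesis genes. It had 258, 262 and 258 CPM in Thy-Tet1+/+ against 339, 330 and 369 CPM in libraries labelled Thy-Tet1-/-. The Thy-Tet1+/+ libraries lay almost on 1 value, with a coefficient of variation of 0.792% against 5.84% in the other group, and all 3 lay below the other group. This spread of the Thy-Tet1+/+ libraries is smaller than the 2.14% that counting error alone gives at the lowest Pax8 count. The log2 fold change was 0.42 (95% interval 0.16 to 0.68, standard error 0.11, adjusted p = 0.127 from edgeR). DESeq2 gave an adjusted p of 0.00115, the lowest of a range that reached 0.368 over the alternatives with edgeR, limma and DESeq2. The exons of Pax8 overlap 367 bp of Gm13415 on the opposite strand, a transcript not in the count table, and the sources used here do not state whether counting used strand.

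Nkx2-1 (NCBI gene 21869, chr12:56531958-56536908), the homeobox factor that follicular cells share with lung and C cells, had 287, 336 and 195 CPM in Thy-Tet1+/+ and 480, 373 and 430 CPM in the libraries labelled Thy-Tet1-/-. The groups did not overlap, with 336 CPM in the highest Thy-Tet1+/+ library and 373 CPM in the lowest library of the other group. The log2 fold change was 0.65 (95% interval 0.13 to 1.17, standard error 0.22, adjusted p = 0.192 from edgeR, 0.0472 from DESeq2 and 0.0376 to 0.459 over all alternatives). The call did not hold without Thy-Tet1+/+ replicate 3, the lowest of all libraries (log2 fold change 0.46), without replicate 1 labelled Thy-Tet1-/- (0.53) or without replicate 3 labelled Thy-Tet1-/- (0.64). It did not hold in the 4 libraries left when both with thymocyte genes were dropped (0.68).

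Foxe1 (NCBI gene 110805, chr4:46343609-46346412), a forkhead factor of thyroid migration and of thyroglobulin transcription, had 170, 135 and 189 CPM in Thy-Tet1+/+ and 214, 173 and 153 CPM in the other group. The groups overlapped, and the log2 fold change of 0.13 had a 95% interval of -0.30 to 0.56. Its single exon overlaps 102 bp of Gm12446 on the opposite strand, which the table does not list. Hhex (NCBI gene 15242, chr19:37434810-37440731), a homeobox factor needed to keep the thyroid bud, had 63.0, 55.0 and 61.3 CPM against 77.7, 70.5 and 59.1 CPM. Of the libraries labelled Thy-Tet1-/-, replicates 1 and 2 lay above all Thy-Tet1+/+ libraries and replicate 3 lay among them. Its log2 fold change was 0.21 (95% interval -0.10 to 0.52, adjusted p = 0.435 from edgeR). For both genes the interval leaves out a change as large as that of Isl1 or Glis3 but holds the value found for Pax8.

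Glis3 (NCBI gene 226075, chr19:28258851-28680077), a zinc finger factor whose loss causes congenital hypothyroidism, moved the other way. It had 39.0, 37.3 and 34.4 CPM in Thy-Tet1+/+ and 22.8, 21.7 and 14.8 CPM in the libraries labelled Thy-Tet1-/-, which is 36.9 ± 2.34 against 19.8 ± 4.34 CPM (s.d., n = 3). Every library labelled Thy-Tet1-/- lay below every Thy-Tet1+/+ library, and replicate 3 labelled Thy-Tet1-/- was the lowest. The log2 fold change was -0.90 (95% interval -1.34 to -0.46, standard error 0.18, adjusted p = 0.098 from edgeR, 0.00232 from DESeq2 and 0.00232 to 0.312 over all alternatives). It stayed past the study's limits with each library left out, from -1.04 to -0.73, and was not past them only when libraries were scaled to 10 epithelial genes.

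**Figure D2:**
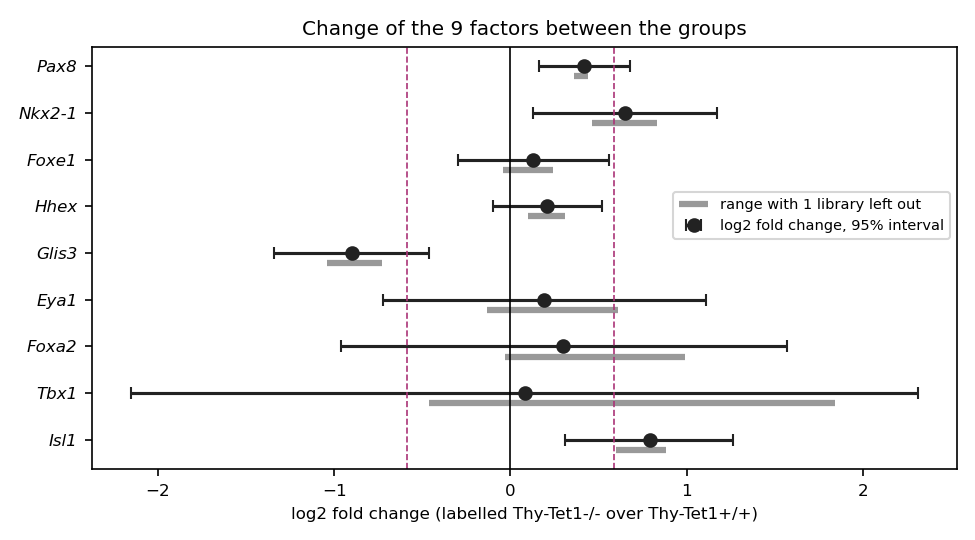
Log2 fold change of each factor between the groups with its 95% interval from edgeR (points and thin bars), and the range of the value with 1 library left out in turn (grey bars). Dashed lines mark a 1.5-fold change up or down. Isl1, Nkx2-1 and Glis3 lie beyond it, and the intervals of Eya1, Foxa2 and Tbx1 are the widest.

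Isl1 (NCBI gene 16392, chr13:116298281-116309689), a LIM-homeobox factor of endocrine and neural cells that C cells express, had 8.66, 8.02 and 7.49 CPM in Thy-Tet1+/+ and 16.8, 12 and 12.8 CPM in the libraries labelled Thy-Tet1-/-. All 3 of the latter lay above all of the former. The log2 fold change was 0.79 (95% interval 0.31 to 1.26, standard error 0.20, adjusted p = 0.122 from edgeR, 0.0201 from DESeq2 and 0.0201 to 0.384 over all alternatives), and it was past the study's limits under each of the 15 alternatives. Beside it, the 8 C cell markers summed to 2509, 5425 and 2870 CPM in Thy-Tet1+/+ and 5445, 5373 and 4152 CPM in the other group, with overlap. Calca, the calcitonin gene, made up most of this sum, with 1902 to 4612 CPM against 3653 to 4659. The C cell markers Ret, the receptor of the GDNF family ligands, and Nkx2-2 were lower, with log2 fold changes of -1.12 and -1.14, past the study's limits. The part of C cells in the Isl1 result was not tested.

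Foxa2 (NCBI gene 15376, chr2:148042877-148046969), a forkhead factor of endoderm, had 9.14, 3.80 and 2.50 CPM in Thy-Tet1+/+ and 7.63, 7.35 and 3.81 CPM in the libraries labelled Thy-Tet1-/-. Each group held a low and a high library, and the log2 fold change of 0.30 had a 95% interval of -0.96 to 1.57. Without the libraries with thymocyte genes it was 1.25, past the study's limits, and without Thy-Tet1+/+ replicate 3 it was -0.03, so the value rests on which libraries enter.

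Eya1 and Tbx1 followed a different order. Eya1 (NCBI gene 14048, chr1:14168954-14310235), a phosphatase and transcriptional cofactor, had 15.9, 8.02 and 23.7 CPM in Thy-Tet1+/+ and 13.9, 20.4 and 20.1 CPM in the libraries labelled Thy-Tet1-/-. Tbx1 (NCBI gene 21380, chr16:18580979-18590671), a T-box factor of the pharyngeal arches and pouches, had 4.51, 1.02 and 21.6 CPM against 6.32, 13.9 and 8.64 CPM. For both, Thy-Tet1+/+ replicate 2 was the lowest and Thy-Tet1+/+ replicate 3 the highest of the 6 libraries. Their log2 fold changes were 0.19 (95% interval -0.72 to 1.11) and 0.08 (95% interval -2.15 to 2.31), so that a change as large as that of Isl1 lies within both intervals. Leaving out single libraries moved Tbx1 from -0.46 to 1.84, and the value without Thy-Tet1+/+ replicate 3 was past the study's limits.

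The summed parathyroid markers had the same order of libraries within each group. The 8 parathyroid markers, of which Chga has the largest share, summed to 8394, 301 and 32127 CPM in Thy-Tet1+/+ and 10828, 22436 and 12124 CPM in the libraries labelled Thy-Tet1-/-. Gcm2, the factor that defines the parathyroid, was 0.214 CPM in Thy-Tet1+/+ replicate 2 and 32.9 to 75.5 CPM in the other 5 libraries. Within each group, libraries ranked by this sum were ranked the same way by Eya1 and by Tbx1, and by Pax9, a paired-box factor of the pharyngeal pouches. Gcm2 itself and Pax1, the paralog of Pax9, followed the sum in Thy-Tet1+/+ but not in the libraries labelled Thy-Tet1-/-, where Gcm2 had 53.1, 60.7 and 35.0 CPM and Pax1 had 7.90, 15.8 and 24.9 CPM. Nkx2-1, which parathyroid cells lack, was ranked the inverse way in both groups, from 336 to 195 CPM in Thy-Tet1+/+ and from 480 to 373 CPM in the other. Of all tested genes, 2.56% followed the sum in both groups and 1.12% its inverse. With the sum as a covariate, an alternative chosen after seeing the data, the log2 fold change of Nkx2-1 was 0.72 and past the study's limits (adjusted p = 0.137 from edgeR), and those of Eya1 and Tbx1 were 0.24 and 0.74 and not past them. Whether parathyroid tissue in the samples sets the levels of these factors was not tested.

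**Figure D3:**
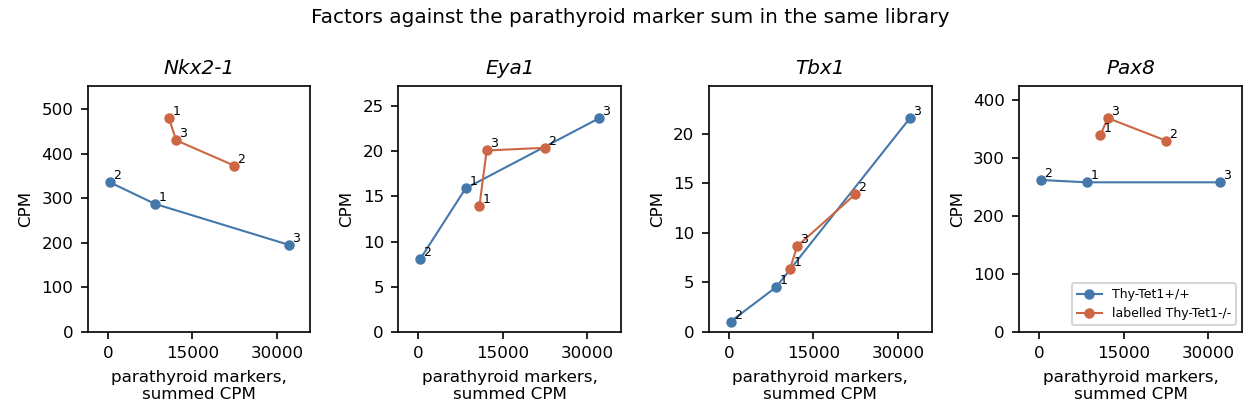
Level of Nkx2-1, Eya1, Tbx1 and Pax8 in CPM (vertical axes from 0) against the summed CPM of 8 parathyroid markers in the same library. Points are libraries numbered by replicate and lines join those of a group in order of the sum. Eya1 and Tbx1 go up and Nkx2-1 goes down along the sum in both groups, while Pax8 does neither.

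The 10 follicular markers, almost all of whose sum is thyroglobulin, summed to 256457 to 316625 CPM in Thy-Tet1+/+ and 193207 to 239260 CPM in the other group, and these ranges do not meet. Thus Pax8 and Nkx2-1 were higher, and Glis3 lower, in the group in which the follicular sum was lower. Within groups the order varied. Replicate 2 had the highest sum of each group. Its Pax8 and Nkx2-1 were the highest of Thy-Tet1+/+ (262 and 336 CPM) but the lowest of the other group (330 and 373 CPM). The library with the lowest sum had the highest Glis3 in Thy-Tet1+/+ (replicate 1, 39.0 CPM) and the lowest in the other group (replicate 3, 14.8 CPM). Whether the share of follicular cells or of thyroglobulin has a part in these results was not tested. The factors were also set against each other within a library, where the scaling to library size has no part. The log2 ratio of Glis3 to Pax8 counts was -2.72, -2.81 and -2.91 in Thy-Tet1+/+ and -3.90, -3.93 and -4.64 in the other group. The groups did not overlap and differed by -1.34 (p = 0.10 by a two-sided exact permutation test, the lowest value 3 against 3 mice can give). The ratios of Nkx2-1, Foxe1 and Hhex to Pax8 differed by 0.26, -0.29 and -0.21, with overlapping groups (p = 0.4, 0.3 and 0.3 by the same exact permutation test). Among these 4 ratios, Glis3 was the one that separated the groups. Since Glis3 was lower and Pax8 higher without overlap, their ratio had to separate the groups and give this p. It is therefore no further test of either gene.

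**Figure D4:**
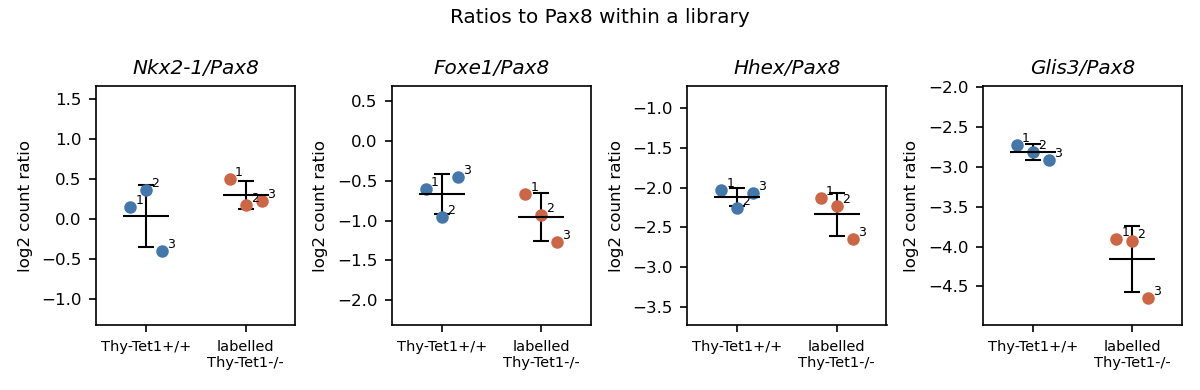
Log2 ratio of the counts of 4 factors to those of Pax8 in the same library. Points are libraries numbered by replicate, bars give the mean ± s.d. of 3, and each axis spans the same 3 log2 units. The ratio of Glis3 to Pax8 was -2.81 ± 0.09 in Thy-Tet1+/+ and -4.15 ± 0.42 in the libraries labelled Thy-Tet1-/-, and the other 3 ratios overlap.

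Compared per kb of merged exons, Nkx2-1 had the highest level of the 9 in Thy-Tet1+/+ (96.0 ± 25.2 CPM per kb, s.d., n = 3), followed by Foxe1 (58.8 ± 9.65), Pax8 (42.8 ± 0.339) and Hhex (11.8 ± 0.837). Glis3 came next at 4.18 ± 0.265, inside the range of Tbx1, and Tbx1, Foxa2, Isl1 and Eya1 lay between 2.03 and 2.57 with ranges that overlap one another. The order of Foxe1 and Pax8 depends on the length used, since per kb of the longest transcript Pax8 had 76.6 and Foxe1 58.8 CPM per kb. In the libraries labelled Thy-Tet1-/- the 4 leading factors kept this order, at 150, 64.2, 57.1 and 13.7 CPM per kb. Below them Isl1 was now first with 3.51 ± 0.652 CPM per kb and Glis3 was the lowest of the 9 with 2.24 ± 0.491. The ranges of Isl1 (3.04 to 4.25) and Glis3 (1.67 to 2.58) did not meet, and those of Tbx1 and Foxa2 overlapped both. Foxe1 and Pax8, neighbours in this order, overlapped in the libraries labelled Thy-Tet1-/- (from 54.5 in each) but not in Thy-Tet1+/+.

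For each factor the genes with the most similar pattern over the 6 libraries were sought among 9777 tested genes with a mean of at least 10 CPM, by Pearson's r of log2(CPM + 0.5). The points share libraries and depth, and a group difference alone gives a high r. For each factor the 3 highest r were picked from 9777 genes over only 6 points. Such picks were also high for Foxe1, Hhex, Eya1, Foxa2 and Tbx1, whose groups overlap. What r such a search reaches by chance was not computed. Glis3 was most like Klf15 (r = 0.996), Pdk4 (r = 0.99) and Zbtb16 (r = 0.99), all 3 also lower in the libraries labelled Thy-Tet1-/- (log2 fold changes -0.75, -0.60 and -1.42). Pax8 was most like Cdkn1b (r = 0.996), the cell cycle inhibitor p27, then Zer1 and Fbxl20. Nkx2-1 was most like Traf4 (r = 0.989), Septin8 and Tnip2, and Isl1 was most like Ahr (r = 0.992), the aryl hydrocarbon receptor, Eml6 and Dock6. Foxe1 was most like Zfp385b (r = 0.997), Dnajc15 and Suclg1, and Hhex was most like Echs1 (r = 0.992), Mocs2 and Mecr, of which Suclg1, Echs1 and Mecr encode mitochondrial enzymes. For the factors with less stable levels the most similar genes were Mrrf, Eogt and Tmem184c for Eya1, Dhdh, Sfrp1 and Enpp3 for Foxa2, and Cpeb2, Qpct and Akr1c13 for Tbx1, with r from 0.977 to 0.995.

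Around the 9 factors, the families they belong to were mostly at low levels. Of 20 paralogs 9 had enough counts to be tested, 0 were higher and 2 lower past the study's limits, and their median log2 fold change was 0.07. Beside this, 5.54% of all tested genes were higher and 3.66% lower past the limits. Nkx2-2, an NK2 factor of C cells, had 13.4, 31.6 and 17.0 CPM in Thy-Tet1+/+ and 14.3, 6.99 and 6.96 CPM in the other group (log2 fold change -1.14), with overlap. Eya2, a paralog of Eya1, had 34.1, 58.6 and 29.2 CPM against 22.2, 25.8 and 28.9 CPM (log2 fold change -0.67), without overlap. Neither gene was called without Thy-Tet1+/+ replicate 2, where both were highest, nor without replicate 2 or replicate 3 labelled Thy-Tet1-/-, and without Thy-Tet1+/+ replicate 3 the list had 4 calls. Tbx3, with the highest CPM of the list, had a log2 fold change of 0.07, Eya3 -0.06 and Tbx2 0.68, none of them past the limits. Glis2, in contrast to Glis3, had 20.4 ± 4.48 against 27.1 ± 1.69 CPM (s.d., n = 3), a log2 fold change of 0.41 that did not pass the limits.

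Of 38 partners, cofactors and genes of thyroid and pharyngeal development, 33 were tested, with a median log2 fold change of 0.25. Past the study's limits 6 were higher and 1 was lower, beside 5.54% higher and 3.66% lower of all tested genes. The 6 higher genes were Six5, Hoxa3, Hoxb3, Sox17, Tle3 and Fgf10. Six5, a homeobox factor, had 15.8, 14.2 and 19.6 CPM in Thy-Tet1+/+ and 33.7, 28.4 and 30.9 CPM in the libraries labelled Thy-Tet1-/- (log2 fold change 0.91, adjusted p = 0.0823 from edgeR). Hoxb3, which with Hoxa3 patterns the pharyngeal region, had 6.62 ± 0.434 against 11.7 ± 1.21 CPM (s.d., n = 3), a log2 fold change of 0.82. Hoxa3 had a log2 fold change of 1.03, Fgf10, a mesenchymal growth factor for the epithelium, 1.06, Sox17, an endodermal and endothelial factor, 0.74, and Tle3, a Groucho corepressor, 0.66. Tubb1, a beta-tubulin linked to thyroid dysgenesis, was the lower gene at -0.65. The growth factor receptor Fgfr2 (log2 fold change -0.09), Sox9 (-0.41), the coactivators Ep300 (0.09) and Crebbp (0.10), and Yap1 (-0.02) did not pass the limits, nor did the PAX8 partner Wwtr1 (0.31).

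Among genes known as targets of these factors, those past the limits were all lower. Of 22 targets 20 were tested, 0 were higher and 4 were lower past the study's limits, beside 5.54% higher and 3.66% lower of all tested genes. The median log2 fold change was -0.38 against 0.00 over all genes. Tshr, the thyrotropin receptor, had 72.1, 76.2 and 94.7 CPM in Thy-Tet1+/+ and 18.2, 21.1 and 15.0 CPM in the libraries labelled Thy-Tet1-/-, with no overlap. Its log2 fold change of -2.16 was the 1 difference in the list with an adjusted p under 0.05 from edgeR (0.0466). With the replicate block this adjusted p was 0.242. DESeq2 called 3 targets after adjustment, Tshr (8.24e-23), Cdh1 (1.01e-06) and Dio1 (0.0241), beside 8.39% of all genes. Dio1, the deiodinase that activates thyroxine, was at -0.72, Iyd, which recovers iodide from iodotyrosines, at -0.63, and the adhesion molecule Cdh1 at -0.63. Tg was at -0.43 and the iodide transporter Slc26a7 at -0.49, both without overlap between groups and neither past the limits. Slc5a5, the sodium-iodide symporter, had 110 ± 29.7 against 119 ± 26.5 CPM (s.d., n = 3) and overlapping groups.

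**Figure D5:**
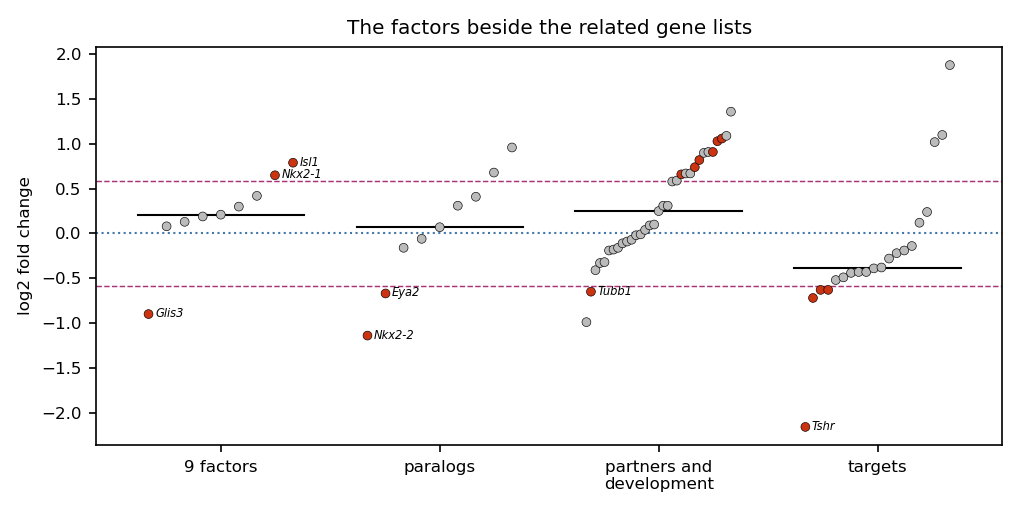
Log2 fold change of the 9 factors and of the tested paralogs, partners and targets (points in order within a list, red where past the study's limits, which the dashed lines mark for the fold change). Black bars are list medians of 0.21, 0.07, 0.25 and -0.38, and the dotted line is the median of all tested genes. The called partners lie above 0 except Tubb1, and the called targets all lie below.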

How the data were processed

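Thyroid RNA of 6 mice was sequenced from poly(A)-selected, directional libraries. The authors deposited raw counts per gene without normalization. The submitters' processing notes name mm10, and the aligner, counter and annotation are not given in the sources used here. Libraries were grouped by their titles, control taken as Thy-Tet1+/+ and treatment as Thy-Tet1-/-, each with a replicate number. The study states n = 3 per group.

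The tests used edgeR 4.0.16 under R 4.3.3 (filterByExpr, TMM scaling, glmQLFit and glmQLFTest, Benjamini-Hochberg adjustment over 14143 genes). DESeq2 1.42.0, limma-voom (limma 3.58.1), RLE scaling, other filters, scaling to 10 epithelial genes, a replicate block and each library left out were alternatives. A fit of 4 libraries and a parathyroid covariate were chosen after seeing the data. The code was tested on simulated data. CPM used TMM-scaled library sizes. By library totals without TMM, 3 counts were 0.150 to 0.338 CPM, which covers counting error only. The common biological coefficient of variation was 0.327. Lengths and overlaps came from GENCODE M21 and promoters from RefSeq. 27 symbols turned into dates were restored by NCBI identifier.

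The factors, the gene lists and the tests were chosen with earlier results of these data known. The text names all 9 factors, listed genes past the study's limits, up to 4 more of each list by mean CPM with a few others named after their values were seen (Pax9, Pax1, Crebbp, Wwtr1, Slc5a5), the 3 most similar genes of each factor, and markers that move with a factor. Results for some listed genes are not reported here.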

Additional observations from a re-analysis of the deposited data

How the results depend on the processing

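Glis3, Isl1 and Pax8 kept their direction under all 15 alternatives, as did Nkx2-1 and Hhex. Leaving out each library in turn gave 0.36 to 0.44 for Pax8, 0.46 to 0.83 for Nkx2-1, -0.04 to 0.24 for Foxe1, 0.10 to 0.31 for Hhex, -1.04 to -0.73 for Glis3, -0.13 to 0.61 for Eya1, -0.03 to 0.99 for Foxa2, -0.46 to 1.84 for Tbx1 and 0.60 to 0.88 for Isl1 on the log2 scale. The values below 0 were Foxe1 without replicate 1 labelled Thy-Tet1-/- (-0.04), Eya1 without Thy-Tet1+/+ replicate 2 (-0.13), Foxa2 without Thy-Tet1+/+ replicate 3 (-0.03), and Tbx1 without Thy-Tet1+/+ replicate 1 (-0.23) or 2 (-0.46) or replicate 2 labelled Thy-Tet1-/- (-0.29). In the 4 libraries without thymocyte genes, Nkx2-1 was 0.68 and no longer called, Foxa2 was 1.25 and called, and Tbx1 was -0.16. There the paralog list had 0 calls and the target list 2. Scaling to 10 epithelial genes, of which Cdh1 was itself lower, shifted the median of all genes to 0.51 and raised the calls from 1301, of which 60.2% were higher, to 4278, of which 98.5% were higher. Under it Pax8 was 0.92, Hhex 0.71, Nkx2-1 1.18, Isl1 1.30 and Glis3 -0.39. Relative to the shifted median these were 0.41, 0.20, 0.67, 0.79 and -0.90. The partner list then had 11 calls and the target list 2.

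Adjusted p under 0.05 were reached by 4 factors with DESeq2 and by 3 with the epithelial scaling. Over all genes they were reached by 16 genes with edgeR, 1162 with DESeq2, 1043 with the epithelial scaling, 25 with a minimum of 10 counts in every library, 0 to 1 with a library left out, and 0 with the 4 libraries, with the parathyroid covariate or with the replicate block. The paralog list had 1 call with limma-voom, 5 with no filter on low counts, 0 with the replicate block and 0 to 4 with a library left out, and the partner list had 11 with limma-voom. With the replicate block, Pax8 was 0.42, Nkx2-1 0.68, Glis3 -0.92 and Isl1 0.77 (adjusted p = 0.339, 0.341, 0.246 and 0.296 from edgeR), and the same 3 factors were called. The titles number the libraries but do not pair them, and same-numbered deviations correlated at -0.17, -0.37 and -0.19. The causes of these shifts were not tested, except that fewer libraries enter the fits that leave libraries out. Per kb of the longest transcript, levels in Thy-Tet1+/+ and in the other group were 76.6 and 102 for Pax8, 15.3 and 17.7 for Hhex, 3.64 and 4.15 for Eya1, and 3.20 and 5.52 for Isl1, and Glis3 had 4.91 in Thy-Tet1+/+. In Thy-Tet1+/+ the coefficient of variation was 122% for Tbx1, 68.4% for Foxa2 and 49.4% for Eya1. In the libraries labelled Thy-Tet1-/- it was 40.5, 34.0 and 20.2%. Counting error alone gives 22.9, 14.9 and 8.64% at their lowest counts. The source of the further spread between libraries was not tested.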
